A study of Mus musculus with 6 samples.

Results

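The genes described here are 10 mouse genes of the noncanonical poly(A) polymerase and terminal uridylyltransferase family: Fam46a, Fam46b, Fam46c, Papd4, Papd5, Papd7, Mtpap, Tut1, Zcchc6 and Zcchc11. All 10 were found by gene symbol among the 24318 genes of an expression table made from CAD cells, a cultured mouse line of catecholaminergic neuronal type. The table held 3 libraries from cells given an siRNA against circGigyf2, a circular RNA made from exons of Gigyf2 (siCircGigyf2), and 3 from cells given a control siRNA (siNC). Both groups were the same line with no other agent named, and the labels do not say whether the replicates were separate cultures, so the spread between them may be technical. The set was chosen by values of this same contrast: Fam46a was picked because it was among the genes with the largest difference between the groups, and its relatives were added with the results known. The differences of all 10 genes between siCircGigyf2 and siNC are therefore given as a description, with no p-value, and the count of members past the threshold of the fit over all genes is printed only as a count.

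Enzymes of this family add nucleotides to RNA 3' ends, in most cases without the cleavage machinery that serves the canonical poly(A) polymerases. The FAM46 proteins, now called TENT5, lengthen the poly(A) tails of certain cytoplasmic mRNAs, in particular those of secreted proteins. PAPD4, also known as GLD2, extends tails in the cytoplasm and is known in neurons from work on CPEB-bound mRNAs and on microRNA 3' ends. PAPD5 and PAPD7 tail nuclear RNAs and can place mixed tails on mRNAs, MTPAP builds the tails of mitochondrial mRNAs, TUT1 adds uridines to U6 snRNA, and ZCCHC6 and ZCCHC11, also called TUT7 and TUT4, add uridines to mRNAs and to let-7 precursors.

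The values are FPKM, fragments scaled to transcript length and to library size, as the authors deposited them. Levels of different genes are set side by side on that scale. Such comparisons are approximate, because the annotation and strand handling behind the values are not given. Summed over all genes, FPKM came to between 604881 and 624645 per library with siCircGigyf2 and between 578627 and 601552 with siNC. The fragment number per library was not stated, but steps between low values put the depth of the siCircGigyf2 libraries at 0.802 to 0.914 of that of siNC replicate 1, and that of the other siNC libraries at 0.953 and 0.979. Of 16 markers of catecholaminergic neurons, 13 had a mean of at least 1 FPKM, among them Th, Phox2a and Hand2. Dbh was among them too, but averaged only 1.14 FPKM with siCircGigyf2 and 1.77 with siNC. Ddc averaged 0.314 and 0.351 FPKM, Slc6a3 was near 0, and Slc6a2, the noradrenaline transporter gene, was listed at 0 in all 6 libraries. All 12 markers of astrocytes, microglia and oligodendrocytes averaged under 1 FPKM, and Aqp4, Aldh1l1, Itgam and Mag were at 0 throughout. Of 4 endothelial markers, 1 reached that level, Pecam1, at 6.58 FPKM with siCircGigyf2 and 6.48 with siNC. Of 4 fibroblast markers, 2 did, Col1a1 and Pdgfra. Gigyf2 itself, whose value pools linear and circular reads, was at 21.8, 21.1 and 21.3 FPKM with siCircGigyf2 and at 23.2, 23.1 and 23.2 with siNC. In log2(FPKM + 1) it fell by 0.11 with an SE of 0.033 (limma adjusted p = 0.0287), a call that was lost without any library other than siCircGigyf2 replicate 1, with limma adjusted p from 0.0659 to 0.0845. In bulk samples such as these, fewer cells of a type and less RNA per cell cannot be told apart.

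Fam46a had the largest log2 difference of the members tested and the highest mean level in both groups. In siNC libraries its level was only 1.12 times that of Papd4. It was at 77.1, 78.6 and 76.4 FPKM with siCircGigyf2 and at 40.3, 38.0 and 39.8 FPKM with siNC. The groups were far from overlapping, since the lowest siCircGigyf2 library was 1.90 times the highest siNC library. The means were 77.4 ± 1.13 and 39.4 ± 1.21 FPKM (SD, n = 3), a ratio of 1.97 and a log2 difference of 0.96 (SE 0.033) on the log2(FPKM + 1) scale. Replicates lay close together, with a coefficient of variation of 1.46% and 3.08%, against medians of 4.71% and 4.08% over all genes tested. Only 12 of the 11420 genes with a mean of at least 1 FPKM had a larger log2 rise. Over the 14 other ways of processing the data, including each library left out in turn, the difference stayed between 0.93 and 0.97.

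**Figure D1:**
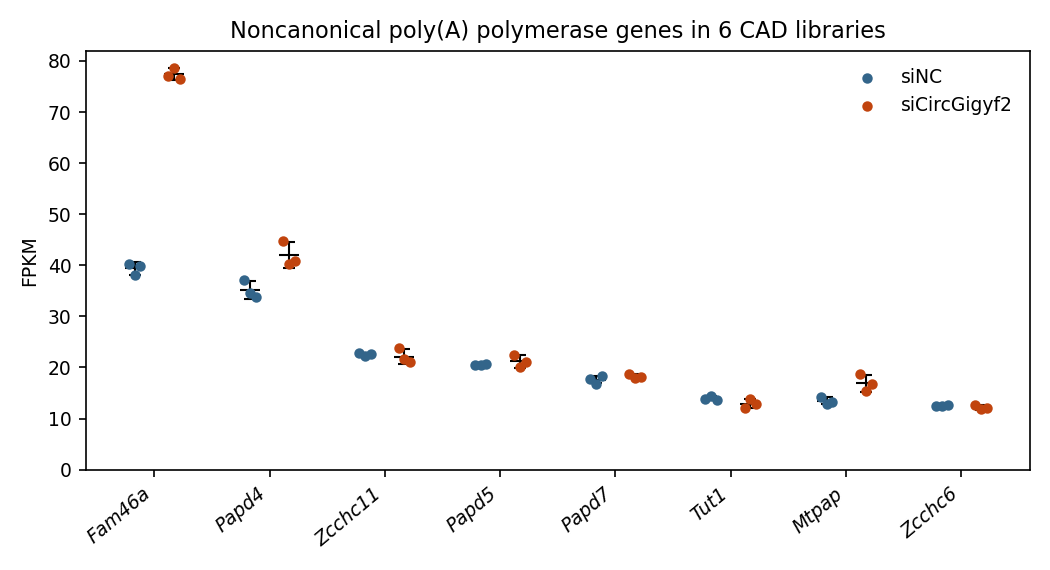
FPKM (y axis) of the 8 members with a mean of at least 1 FPKM, ordered by siNC level. Points are libraries, and bars are the mean and SD of 3. Fam46a sits near 39.4 FPKM in siNC and near 77.4 in siCircGigyf2, Papd4 and Mtpap are higher without overlap, and the points of the other 5 overlap between groups.

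Fam46a, named Tent5a in RefSeq, lies on chr9:85320439-85327150 of GRCm38.p6, a newer build than the mm9 of the submitters' processing notes, and no other RefSeq gene overlaps it. Its promoter window is shown because this member differed most. The window runs from 250 bases before the annotated start to 50 after it, on the minus strand, at chr9:85327101-85327400, and comes from RefSeq, which gives this gene a pair of starts with overlapping windows. Capitals mark the motifs found.
Fam46a: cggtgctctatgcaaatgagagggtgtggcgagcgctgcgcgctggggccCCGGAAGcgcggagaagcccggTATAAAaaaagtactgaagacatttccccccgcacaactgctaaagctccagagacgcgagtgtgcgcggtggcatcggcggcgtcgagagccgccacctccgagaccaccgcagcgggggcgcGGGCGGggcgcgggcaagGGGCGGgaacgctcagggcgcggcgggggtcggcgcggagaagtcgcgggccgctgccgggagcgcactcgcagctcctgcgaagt

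The capitals are an ETS-type motif (CCGGAAG) beginning 200 bases before the start, a TATA-type motif (TATAAA) at 178 bases, and GC boxes (GGGCGG) at 54 and 36 bases. Each motif was searched on both strands in all starts of 27025 RefSeq genes, of which 9.93% held CCGGAAG, 15.7% held TATAAA and 38.2% held GGGCGG. The CCAAT box (CCAAT, 41.1% of genes), the E box (CACGTG, 8.09%), the cyclic AMP response element (TGACGTCA, 2.03%) and the AP-1 motif (TGACTCA, 5.95%) were also searched, and their letters are not in this window. Windows were found for 9 of the 10 members. Of these, Fam46a was the only member with TATAAA, 8 held GGGCGG, 5 held CCAAT, and Fam46a, Papd4 and Zcchc6 held CCGGAAG. The window was 70.3% G and C, against a median of 52.7% over all genes. These matches describe the letters and were not tested for a part in the expression values.

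The nearest protein-coding genes with a row in the table did not pass the test. Ibtk, which starts 360209 bases away, averaged 17.2 ± 0.346 FPKM with the circGigyf2 siRNA and 17.3 ± 0.317 with the control (SD, n = 3). Its log2 difference was -0.011 (95% interval -0.095 to 0.073, limma adjusted p = 0.838). Bckdhb, a subunit gene of the branched-chain keto acid dehydrogenase, lies 1196199 bases away on the other side and averaged 20.3 ± 0.823 and 19.3 ± 1.83 FPKM. Its log2 difference was 0.072 (95% interval -0.071 to 0.22, limma adjusted p = 0.400).

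The 5 genes whose profile over the 6 libraries was nearest to that of Fam46a were Mfap3l, Tmem74, Gxylt1, Peg10 and Lhx4. Nearness was the Euclidean distance between log2(FPKM + 1) values, each gene centred on its own mean, and it ranged from 0.163 for Mfap3l to 0.220 for Lhx4. Because the largest part of these profiles is the gap between the groups, they describe genes with a like gap, and no test was applied to them. Gxylt1, a glucoside xylosyltransferase gene, averaged 20.2 ± 0.354 FPKM against 10.9 ± 0.349 (SD, n = 3). Peg10, a paternally expressed gene of retrotransposon origin, averaged 74.9 ± 3.03 against 41.5 ± 1.06 FPKM, close to Fam46a in level as well. Tmem74 averaged 33.4 ± 2.52 against 17.9 ± 0.335 FPKM, and Lhx4, a LIM homeobox gene, 12.7 ± 1.05 against 6.64 ± 0.568. None of the other members was near in this sense: Mtpap ranked 733 and Papd4 1081 among the tested genes in nearness to Fam46a, at distances of 0.825 and 0.882.

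**Figure D2:**
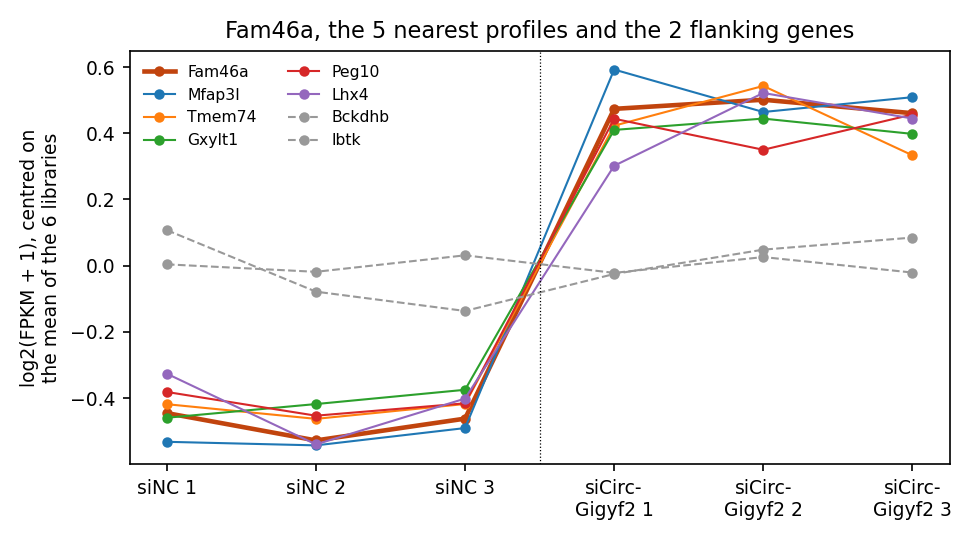
Log2(FPKM + 1) centred on each gene's mean of 6 libraries (y axis) by library (x axis), for Fam46a, the 5 genes nearest to it in profile and the flanking genes Ibtk and Bckdhb (dashed). Lines only join the points of a gene. The 6 solid profiles lie below 0 in every siNC library and above 0 in every siCircGigyf2 library, while the flanking genes stay near 0.

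The other FAM46 genes were at or near the floor. Fam46b was at 0.0979, 0.0898 and 0.0768 FPKM with siCircGigyf2 and at 0.164, 0.272 and 0.172 FPKM with siNC, so its groups did not overlap, with siNC the higher. With the depth ratios above, these values are whole multiples, within 0.05, of a single step and correspond to at least 4, 4 and 3 fragments against 8, 13 and 8. The ratio of the means was 0.434 and rests on sums of 11 and 29 such fragments, and the gene fell below the level required for the test. In RefSeq, 1 other gene overlaps Fam46b, and strand handling was not given. Fam46c was listed at 0 in all 6 libraries, which need not mean absence in a table without counts. Fam46d, the remaining gene of the FAM46 family and not among the 10, had at most 0.0945 FPKM in any library. Fam46a thus supplied nearly all FAM46 signal in both groups. Of the summed FPKM of all 10 genes it made up 22.4% ± 0.338 in siNC and 34.7% ± 1.19 in siCircGigyf2 libraries (SD, n = 3).

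Papd4, whose product is the cytoplasmic poly(A) polymerase GLD2, was the second most abundant member. It was at 44.8, 40.3 and 40.8 FPKM with siCircGigyf2 and at 37.1, 34.6 and 33.8 FPKM with siNC. The groups did not overlap, but the lowest siCircGigyf2 library was only 1.09 times the highest siNC library, and siCircGigyf2 replicate 1 was the highest of all. The means were 42.0 ± 2.51 and 35.1 ± 1.73 FPKM (SD, n = 3), a ratio of 1.19 and a log2 difference of 0.25 (SE 0.050), or 0.20 without siCircGigyf2 replicate 1. In siNC libraries Fam46a was at 1.12 ± 0.050 times the level of Papd4, and in siCircGigyf2 libraries at 1.85 ± 0.118 times.

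Papd4, named Tent2 in RefSeq, lies on chr13:93145855-93192435 of GRCm38.p6. Both a promoter window and a 3' UTR stretch are shown, the first because it shares the ETS-type letters with Fam46a. The promoter window is chr13:93192368-93192667 on the minus strand, from RefSeq. Its capitals are CCGGAAG beginning 36 bases before the start and the same motif on the other strand 19 bases past it, and none of the other motifs named above was found in it.
Papd4 promoter: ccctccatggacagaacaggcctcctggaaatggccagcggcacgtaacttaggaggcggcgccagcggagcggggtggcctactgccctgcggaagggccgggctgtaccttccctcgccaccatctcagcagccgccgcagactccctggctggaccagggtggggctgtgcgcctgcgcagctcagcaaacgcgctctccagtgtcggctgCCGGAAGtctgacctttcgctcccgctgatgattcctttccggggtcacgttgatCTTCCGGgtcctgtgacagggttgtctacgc
The 3' UTR stretch is chr13:93146426-93146452 of GRCm38, minus strand, from the longest GENCODE M21 coding transcript, with the 7 bases GCCTACA in capitals.
Papd4 site: cttcttgtagGCCTACAgtggtacaat

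Those 7 bases were searched because an earlier look at these libraries had read them from the 3' UTRs of genes that were lower in siCircGigyf2. They occur in the 3' UTR of 7.25% of 10904 tested genes searched and of 1 of the 10 members. Papd4 was that member, and its level was higher in siCircGigyf2. Because the letters came from this same contrast, the match and the direction of Papd4 are given only as a description. The Zcchc6 transcript holds the letters outside its 3' UTR. Whether the site acts on Papd4 was not tested.

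Papd5 and Papd7 encode paralogous nuclear enzymes, the TRF4-type polymerases that mark RNAs for trimming or decay. Papd5 was at 22.4, 20.1 and 21.0 FPKM with siCircGigyf2 and at 20.6, 20.5 and 20.7 FPKM with siNC. A siCircGigyf2 library was both the highest and the lowest of the 6. The log2 difference was 0.036 (95% interval -0.063 to 0.14), and it changed sign, to -0.0038, without siCircGigyf2 replicate 1. Papd7 was at 18.8, 17.9 and 18.2 FPKM with siCircGigyf2 and at 17.8, 16.8 and 18.3 FPKM with siNC, again overlapping. Its log2 difference was 0.054 (95% interval -0.042 to 0.15). The ratio of Papd5 to Papd7 was 1.16 ± 0.0367 in siCircGigyf2 and 1.17 ± 0.0445 in siNC libraries (SD, n = 3), a gap smaller than the spread between replicates.

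Tut1, the U6 uridylyltransferase also known as Star-PAP, was the member with the lowest log2 difference among those tested. It was at 12.1, 13.8 and 12.9 FPKM with siCircGigyf2 and at 13.8, 14.5 and 13.7 FPKM with siNC. The groups overlapped by siCircGigyf2 replicate 2 alone, which lay above the lower pair of siNC libraries. The log2 difference was -0.10 (95% interval -0.22 to 0.013) and ranged from -0.15 to -0.062 over the alternatives.

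The uridylyltransferase genes Zcchc6 and Zcchc11 had the smallest log2 differences of the members. Zcchc11 was at 23.8, 21.6 and 21.0 FPKM with siCircGigyf2 and at 22.9, 22.2 and 22.6 FPKM with siNC, which lay inside the siCircGigyf2 range. Its log2 difference was -0.027 (95% interval -0.14 to 0.081), and the sign changed, to 0.0079, without siCircGigyf2 replicate 3. Zcchc6 was at 12.8, 11.8 and 12.1 FPKM against 12.4, 12.4 and 12.6 FPKM, with a log2 difference of -0.029 (95% interval -0.13 to 0.069). Zcchc11 stood at 1.81 times Zcchc6 in both groups (SD 0.0686 in siCircGigyf2 and 0.0332 in siNC, n = 3). In RefSeq, 6 other genes overlap Zcchc11 and 1 overlaps Zcchc6, and strand handling was not given in the sources used here.

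Mtpap, the mitochondrial poly(A) polymerase gene, was the most variable of the 8 measured well enough to test. It was at 18.7, 15.3 and 16.7 FPKM with siCircGigyf2 and at 14.2, 12.9 and 13.3 FPKM with siNC. No siCircGigyf2 library fell within the siNC range, although siCircGigyf2 replicate 2 was only 1.08 times the highest siNC library. The means were 16.9 ± 1.67 and 13.4 ± 0.686 FPKM (SD, n = 3), a ratio of 1.26 and a log2 difference of 0.31 (SE 0.068), with 0.24 to 0.37 over the alternatives. Its coefficient of variation was 9.89% in siCircGigyf2, where the median gene had 4.71%.

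Of the 8 members that entered the fit, 3 were past its threshold, all of them higher in siCircGigyf2 (Fam46a, Papd4 and Mtpap), and 0 were past it as lower. Over all 11420 genes tested by limma at an adjusted p of 0.05, 38.2% passed, 19.5% as higher and 18.7% as lower. The same 3 members were those whose libraries did not overlap between groups, where 51.0% of all tested genes did not overlap. The median log2 difference of the 8 was 0.045, against 0.00035 for all genes tested, and it moved to 0.016 without siCircGigyf2 replicate 1, 0.070 without siCircGigyf2 replicate 2 and 0.028 without siNC replicate 2. The count is not evidence about the family, because the contrast that it counts also served to choose the genes. Without the filter on low values 4 members passed, since Fam46b was then tested, with a log2 difference of -0.14. Among siCircGigyf2 libraries, replicate 1 held the highest value for 6 of the 8 members (Papd4, Papd5, Papd7, Mtpap, Zcchc6 and Zcchc11), where it was the highest of its group for 37.1% of all tested genes. Without this library the log2 differences were 0.20 for Papd4 and 0.24 for Mtpap.

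**Figure D3:**
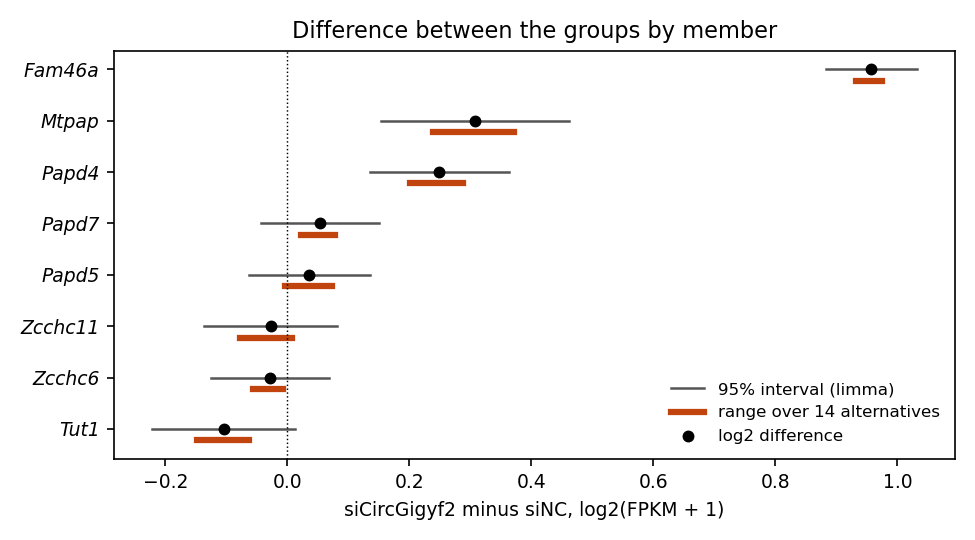
Log2 difference in log2(FPKM + 1) (x axis, siCircGigyf2 minus siNC) of the 8 members with a mean of at least 1 FPKM. Points are the main estimate, grey lines its 95% interval, and thick lines the range over 14 alternatives. Fam46a is at 0.96, Mtpap at 0.31 and Papd4 at 0.25, and the other 5 lie from -0.10 (Tut1) to 0.054 (Papd7). The intervals are a description and not a test, because the members were chosen by this contrast.

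The order of levels changed little between groups. In siNC libraries it ran Fam46a, Papd4, Zcchc11, Papd5, Papd7, Tut1, Mtpap and Zcchc6, and neighbours had separate ranges except Tut1 and Mtpap, which overlapped. In siCircGigyf2 libraries Mtpap stood above Tut1 without overlap. There, Zcchc11 overlapped Papd5, Papd7 overlapped Mtpap and Tut1 overlapped Zcchc6. The 9 members other than Fam46a summed to 146 ± 6.78 FPKM with the circGigyf2 siRNA and to 136 ± 2.53 FPKM with the control (SD, n = 3).

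Genes that work beside these enzymes were taken from lists by known role and tested with limma over all genes, of which 38.2% passed, 19.5% as higher and 18.7% as lower. The counts of each list stand beside those shares and were not tested against them. The lists were drawn up with earlier results of these data known. Their adjusted p-values therefore describe this contrast and are not independent support for any pattern. For the FAM46 proteins the list held the endoplasmic reticulum proteins that anchor FAM46C, and Plk4, a kinase reported to bind it. Fam46c itself was listed at 0 in every library. Of 4 listed partners tested, 2 rose, 1 fell and 1 did not pass. Fndc3a averaged 51.4 ± 0.812 against 38.8 ± 0.979 FPKM (SD, n = 3) and rose by 0.40 on the log2 scale (limma adjusted p = 5.02e-05), and Fndc3b averaged 35.0 ± 0.328 against 30.7 ± 0.648 FPKM and rose by 0.19 (limma adjusted p = 0.00191). In both genes every siCircGigyf2 library lay above every siNC library. Fndc3c1 fell by 0.19 (limma adjusted p = 0.0300), a call lost without each library other than siCircGigyf2 replicate 1 (limma adjusted p from 0.0585 to 0.0936), with the replicate block (0.0652) and without the filter on low values (0.0548). Plk4 had a log2 difference of -0.14 (limma adjusted p = 0.118). Of 4 bone matrix genes whose mRNAs are described substrates or candidate substrates of TENT5A, 2 entered the fit and both were called higher. Of these, Col1a1 entered only through its siCircGigyf2 libraries, since its siNC mean was under 1 FPKM, so the count depends on the filter. Sparc averaged 222 ± 4.58 against 176 ± 7.86 FPKM and rose by 0.33 (limma adjusted p = 0.000223). Col1a1, a collagen chain gene, averaged 1.47 ± 0.198 against 0.924 ± 0.116 FPKM and rose by 0.36 (limma adjusted p = 0.0180), a call lost without siCircGigyf2 replicate 1 (0.0606) or siNC replicate 2 (0.0615). Its size depended on the pseudocount, since with 0.1 in place of 1 the log2 difference was 0.61. Col1a2 was listed at 0 throughout. Serpinf1 averaged 0.604 ± 0.325 FPKM with siCircGigyf2 and 1.09 ± 0.367 with siNC. Serpinf1 thus averaged lower in siCircGigyf2, with overlapping groups, and the filter left it out. Without that filter it was not called. Col1a1 is also a fibroblast marker. The 4 fibroblast markers, Col1a1 included, summed to 3.70 to 4.13 FPKM with siCircGigyf2 and to 3.40 to 4.10 with siNC. Of the others, Pdgfra averaged 1.83 ± 0.0687 against 2.03 ± 0.0996 FPKM and Dcn 0.633 ± 0.104 against 0.857 ± 0.187, and Col1a2 was at 0. The markers' part in the Col1a1 difference was not tested. A link between Fam46a and these genes was not tested.

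Among partners of GLD2 in cytoplasmic polyadenylation, 1 of 5 tested rose, 1 fell and 3 did not pass. Cpeb4, a CPE-binding protein gene, averaged 131 ± 5.31 against 98.9 ± 1.5 FPKM and rose by 0.40 (limma adjusted p = 6.45e-05). Cpeb1, the founding member of the CPEB group, moved the other way, from 24.0 ± 0.683 FPKM in siNC to 20.7 ± 0.452 in siCircGigyf2, and fell by 0.20 (limma adjusted p = 0.00263).

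Of 9 genes listed as partners of PAPD5 and PAPD7 or as nuclear surveillance factors, 2 rose, 1 fell and 6 did not pass. The median log2 difference was 0.069 (0.038 without siCircGigyf2 replicate 1 and 0.0265 without siNC replicate 3). Zcchc2 averaged 23.4 ± 0.232 against 18.3 ± 0.732 FPKM (SD, n = 3) and rose by 0.34 (limma adjusted p = 0.000249). Zcchc7, the zinc-finger subunit of the TRAMP complex, rose by 0.24 (limma adjusted p = 0.00184). Parn, a deadenylase that removes tails added by PAPD5, averaged 21.0 ± 1.13 against 28.1 ± 0.912 FPKM and fell by 0.40 (limma adjusted p = 0.00024). Without siCircGigyf2 replicate 1 the list held 4 called genes.

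Of 7 genes listed as readers of oligouridylated RNA, RNA decay factors or LIN28 proteins, 2 rose, 1 fell and 4 did not pass. Lin28b, which encodes an RNA-binding protein that blocks let-7 maturation, averaged 27.4 ± 1.17 against 20.9 ± 0.263 FPKM and rose by 0.37 (limma adjusted p = 0.000166), while its paralog Lin28a, whose product recruits the uridylyltransferases to let-7 precursors, stood at 18.4 FPKM in both groups (log2 difference -0.0012, 95% interval -0.090 to 0.087). Lsm1, of the ring that binds RNA 3' ends before decapping, rose by 0.14 (limma adjusted p = 0.0254), and the decapping factor gene Patl1 fell by 0.14 (limma adjusted p = 0.0212). Both calls depended on single libraries. That for Lsm1 was lost without siCircGigyf2 replicate 2 or 3 or siNC replicate 1 or 3, where limma adjusted p lay between 0.0563 and 0.0795, as well as under the replicate block (0.0516), and that for Patl1 without siCircGigyf2 replicate 2 or siNC replicate 1 or 3, from 0.0501 to 0.0831. The list held from 1 to 3 called genes with single libraries left out and 2 with the block.

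Of 7 mitochondrial RNA factors, 2 rose, 0 fell and 5 did not pass. Grsf1, an RNA-binding protein gene of mitochondrial RNA granules, averaged 118 ± 4.71 against 104 ± 4.39 FPKM and rose by 0.19 (limma adjusted p = 0.00713). Pnpt1, the mitochondrial polynucleotide phosphorylase gene, rose by 0.11 (limma adjusted p = 0.0409). The Pnpt1 call was lost without any library but siCircGigyf2 replicate 2 (limma adjusted p from 0.0566 to 0.138), after quantile normalization (0.0726), with the replicate block (0.0808) and without the variance trend (0.0594). Lrpprc, which holds mitochondrial mRNAs for tailing, averaged 36.6 ± 2.90 against 36.5 ± 0.938 FPKM, a log2 difference of 0.00015 (95% interval -0.12 to 0.12).

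Of 13 genes around U6 snRNA and Star-PAP, 0 rose, 3 fell and 10 did not pass, where 18.7% of all genes tested fell, and the median log2 difference was -0.045. Larp7, which binds 7SK and U6 RNA ends, averaged 11.1 ± 0.374 against 14.9 ± 1.33 FPKM (SD, n = 3) and fell by 0.39 (limma adjusted p = 0.00134). Lsm6 and Lsm7, subunits of the ring on U6 3' ends, fell by 0.18 and 0.15 (limma adjusted p = 0.0164 and 0.0123). The Lsm6 call was lost without siCircGigyf2 replicate 3 (0.0529) or siNC replicate 2 (0.0604), and the list held 2 to 4 called genes when single libraries were left out. With the replicate block, and also without siNC replicate 3, 1 gene of the list was called higher.

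Of 19 genes of the canonical 3' end machinery, 1 rose, 3 fell and 15 did not pass, where 38.2% of all genes tested passed. The median log2 difference was -0.0195 and ranged from -0.0034 without siCircGigyf2 replicate 3 to -0.035 without siNC replicate 2. Papola, the main canonical poly(A) polymerase gene, averaged 41.2 ± 1.64 FPKM in siCircGigyf2 and 44.0 ± 1.57 in siNC libraries (log2 difference -0.090, 95% interval -0.18 to 0.0011). It was above Fam46a in every siNC library and below it in every siCircGigyf2 library. Pcf11, a termination factor gene, averaged 24.9 ± 0.603 against 29.5 ± 0.456 FPKM and fell by 0.23 (limma adjusted p = 0.00086). Nudt21 and Cpsf6 encode subunits of cleavage factor I, and they moved in opposite directions: Nudt21 fell by 0.24 (limma adjusted p = 0.00868) and Cpsf6 rose by 0.17 (limma adjusted p = 0.00792). Cpsf7, a further subunit gene, did not pass (log2 difference 0.095, limma adjusted p = 0.134). Cpsf4, a poly(A) signal-binding subunit gene, fell by 0.21 (limma adjusted p = 0.005). Of 10 poly(A)-binding proteins and regulators tested, 1 rose, 1 fell and 8 did not pass. The nuclear poly(A)-binding protein gene Pabpn1 averaged 63.8 ± 3.19 against 57.2 ± 0.749 FPKM and rose by 0.15 (limma adjusted p = 0.0126). Zc3h14 fell by 0.12 (limma adjusted p = 0.0382), which was lost without siCircGigyf2 replicate 1 or 2 or siNC replicate 1 or 2 (limma adjusted p from 0.0625 to 0.126), with the replicate block (0.0601), without the filter on low values (0.0622) and without the variance trend (0.0676). Pabpc1, the abundant cytoplasmic form, averaged 587 ± 14.7 against 570 ± 11.5 FPKM, a log2 difference of 0.044 (95% interval -0.031 to 0.12).

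**Figure D4:**
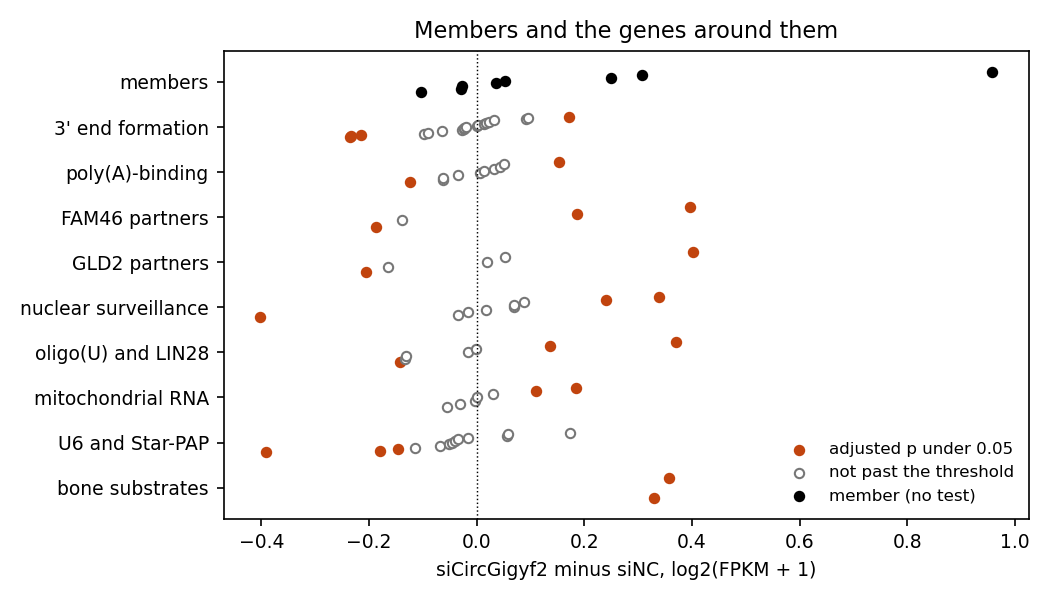
Log2 difference in log2(FPKM + 1) (x axis, siCircGigyf2 minus siNC) of the 8 tested members (black, described without a test) and of the tested genes of 9 lists around them (rows). Filled points passed a limma adjusted p of 0.05 and open points did not. Fam46a lies to the right of every listed gene, and most lists hold genes on both sides of 0.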

How the data were processed

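Members, gene lists and markers were chosen with earlier results of these data known. The authors deposited FPKM per gene symbol for 6 rRNA-depleted paired-read libraries. The build was mm9, per the submitters' processing notes, and the aligner, quantifier, annotation and strand handling are not given in the sources used here. Columns were matched to samples by title and groups came from the treatment label. FPKM are not counts, so no count model was used and absolute depth is unknown. Genes with a mean of at least 1 FPKM entered a limma fit (version 3.58.1, R 4.3.3) of log2(FPKM + 1) (groups only, trended empirical Bayes, two-sided, Benjamini-Hochberg over 11420 genes, threshold 0.05). The scale understates changes of low genes. At most 0.0041% of all genes in the table had a value above 0 that was equal between 2 libraries. Named genes were all members, Fam46d, Gigyf2, up to 4 called genes of smallest p per list, the genes flanking Fam46a and the 5 nearest profiles; others are named after their values were seen. Other settings tried were no filter or 5 FPKM, a pseudocount of 0.1, median-of-ratios or quantile scaling, a replicate block, no trend, robust empirical Bayes and leaving out each library. Sequences are from RefSeq and GENCODE M21 on GRCm38 and were joined by symbol or synonym. Python 3.11.15 was used.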

Additional observations from a re-analysis of the deposited data

How the results depend on the processing

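The count of members past the threshold, a description because the same contrast served to choose them, was 3 under each of the 14 alternatives except without the filter on low values (4). Over all genes the count was 4367 and lay between 3521 and 4423, with 3767 when no filter was set. Of the values under these alternatives for named genes other than the members and Gigyf2, 398 kept their side of the threshold, 34 lost the call and the direction of no called gene turned. Counts of small lists moved more. The FAM46 partner list went from 3 called genes to 2 with the replicate block, without the filter on low values or with a filter of 5 FPKM. The poly(A)-binding list went from 2 called genes to 1 without the filter on low values, with the replicate block and without the variance trend, and to between 1 and 2 with single libraries left out. The mitochondrial list went from 2 to 1 after quantile normalization, with the block and without the trend, and to between 1 and 3 with single libraries left out. The oligouridylation list went from 3 to 2 with the block and to between 1 and 3 with single libraries left out, and the bone matrix list from 2 to 1 with a filter of 5 FPKM and to between 1 and 2 with single libraries left out. Gigyf2 fell by 0.11 in the main fit and kept a difference of -0.109 with the replicate block (limma adjusted p = 0.0598), and it lay between -0.121 and -0.10 with single libraries left out. Replicate numbers gave no clear pairing of the libraries: same-numbered deviations correlated at 0.163, -0.021 and 0.003 over genes. Replicate 2 of siCircGigyf2 correlated best with siNC replicate 3 (0.131), and replicate 3 with siNC replicate 2 (0.072). A pairing under other numbers was not tested. With the block by number 3973 genes passed. Depth is known only in relative terms, and it limits Fam46b, Fam46c and Fam46d.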
